A study of Mus musculus with 9 samples.

Results

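The S100 alarmins S100a8 and S100a9 and 5 related S100 genes, S100a4, S100a6, S100a10, S100a11 and S100a13, were chosen by name and described in mouse blood after injury. A value was taken only from probe sets that carry exactly 1 gene symbol, and from the one with the highest mean where a gene had several. This left 6 of the 7 genes, out of 18194 genes in all. S100a11 has no value of its own here, because its only probe set also carries the symbols of S100a11-ps and Gm12854, so that 3 sequences share 1 signal. Blood RNA of 9 C57BL/6 mice, aged 8 to 9 weeks, was measured on 9 arrays, with 1 array per animal and 3 animals per group. PT+HS mice received a traumatic brain injury, a closed femoral fracture and a blunt chest trauma (polytrauma, PT), and 1 h later a hemorrhagic shock (HS) in which drawn blood held the mean arterial pressure at 30 mmHg for 60 min, followed by 4 times that volume of electrolyte solution within 30 min. PT mice received the same trauma without the bleeding. Blood of both injured groups was taken by heart puncture 4 h after the trauma, and these animals had stayed under sevoflurane and were given buprenorphine for analgesia. The methods also describe arterial and venous catheters and norepinephrine adjusted to the blood pressure, and the paper reports that PT+HS mice needed norepinephrine. Ctrl mice were otherwise not manipulated and were bled as soon as sevoflurane anesthesia had been induced. The trauma, the analgesia, the catheters and the longer anesthesia cannot be told apart in any comparison with Ctrl. Where PT+HS mice are compared with Ctrl, the shock, the fluid and the norepinephrine cannot be told apart from these either. All cells of the blood were measured together, so that more cells of a type and more RNA per cell cannot be told apart either.

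S100 proteins are small calcium-binding proteins with EF-hand domains, most of which work as pairs. S100A8 and S100A9 pair to form calprotectin, which fills much of the cytoplasm of neutrophils and is also made by monocytes. Released from activated or dying cells it acts as an alarm signal through toll-like receptor 4 and the receptor RAGE, and it withholds zinc and manganese from microbes. The related members act mostly inside cells. S100A4 binds non-muscle myosin, S100A6 binds the calcyclin-binding protein, S100A10 pairs with annexin A2 at the cell surface, S100A11 binds annexin A1, and S100A13 takes part in the export of proteins that lack a signal peptide.

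All 7 genes lie on chromosome 3 in the mouse reference annotation of RefSeq (GRCm38.p6). S100a8 spans chr3:90669071-90670034 on the plus strand and S100a9 chr3:90692630-90695721 on the minus strand, so that 22595 bases lie between them. S100a4 at chr3:90603770-90606045 and S100a6 at chr3:90612894-90614414 lie on the same side of S100a8, with S100a5 between them. Between S100a6 and S100a8 lie 54656 bases. S100a13 lies farther out on that side, at chr3:90514233-90524581. S100a11, at chr3:93520496-93526288, and S100a10, at chr3:93555117-93564645, form a separate pair on the other side, with 2824774 bases between S100a9 and S100a11. The 250 bases before the start of S100a8, S100a9 and S100a4 are shown because S100a8 and S100a9 moved together in the animals while S100a4 did not. S100a4 is not a direct neighbor of S100a8, since S100a6 lies between them. They are written 5′ to 3′ on the strand of the gene, with matches to the searched motifs in capitals, and come from RefSeq (GRCm38.p6) at chr3:90668821-90669070, chr3:90695722-90695971 and chr3:90603520-90603769.
S100a8: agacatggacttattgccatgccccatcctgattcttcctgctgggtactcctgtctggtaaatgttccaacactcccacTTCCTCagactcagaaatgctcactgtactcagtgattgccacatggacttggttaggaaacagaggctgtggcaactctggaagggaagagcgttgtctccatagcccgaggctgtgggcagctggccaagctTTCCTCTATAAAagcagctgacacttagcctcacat
S100a9: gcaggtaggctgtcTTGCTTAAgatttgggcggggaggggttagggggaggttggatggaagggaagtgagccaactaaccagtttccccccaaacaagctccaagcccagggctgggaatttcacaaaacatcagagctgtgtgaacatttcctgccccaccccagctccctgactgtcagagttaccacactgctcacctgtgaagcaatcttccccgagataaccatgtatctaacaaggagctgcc
S100a4: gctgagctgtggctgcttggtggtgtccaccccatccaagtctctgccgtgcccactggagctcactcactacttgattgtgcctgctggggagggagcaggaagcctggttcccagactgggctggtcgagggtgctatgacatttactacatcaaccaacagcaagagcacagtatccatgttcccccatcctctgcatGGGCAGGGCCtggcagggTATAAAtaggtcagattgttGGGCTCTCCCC

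Of the 7 genes 6, all but S100a10, matched an entry of the promoter table. Searched on both strands were TTGCNNAA (named for C/EBP), GAGGAA (PU.1), TTCNNNGAA (STAT), TGANTCA (AP-1), ACGTG (HIF), TATAAA (bound by TBP) and a loose NF-kB pattern, which is 3 G, 5 free bases and 2 C. Such short strings are common. In windows of the same length, 9.56% of 32851 promoters held TTGCNNAA, 23.3% held GAGGAA, 7.02% held TTCNNNGAA, 6.75% held TGANTCA, 16.6% held ACGTG, 12.4% held TATAAA and 45.8% held the NF-kB pattern. The window of S100a8 held GAGGAA 2 times on the reverse strand, at 170 to 165 and at 36 to 31 bases before the start, with TATAAA directly after the second at 30 to 25. The window of S100a9 held TTGCNNAA once, at 236 to 229, and its TATAAA began at base 1 after the listed start. S100a4 held TATAAA at 31 to 26 and the NF-kB pattern 4 times, counting both strands, of which 3 overlap each other within the last 11 bases. The window of S100a6 held only the NF-kB pattern, once, at 224 to 215. S100a8 and S100a9 had no motif in common within these windows, and a match is only a string of letters, not a measured binding site.

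S100a8 and S100a9 were the only 2 of the 6 measured genes that passed the thresholds used in the study, a fold change of 1.5 or more together with an unadjusted p below 0.05, and both were higher in the injured animals. In PT+HS mice S100a8 was 2.34-fold and S100a9 2.85-fold higher than in Ctrl mice. In PT mice they were 2.10-fold and 2.35-fold higher than in Ctrl. S100a4, S100a6, S100a10 and S100a13 did not pass in any comparison. Of all genes tested, 3.28% passed the thresholds between PT+HS and Ctrl, and 1.99% as higher. The median log2 difference of the 6 members was 0.40 between PT+HS and Ctrl, 0.29 between PT and Ctrl and 0.16 between PT+HS and PT, where the median over all genes was -0.01, -0.00025 and -0.0032.

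S100a8, which codes for the smaller subunit of calprotectin, had log2 values of 12.94, 11.95 and 12.28 in PT+HS mice, 12.78, 11.56 and 12.37 in PT mice, and 11.70, 10.93 and 10.87 in Ctrl mice. Every PT+HS animal lay above every Ctrl animal, whereas the lowest PT animal fell just under the highest Ctrl animal. The means were 12.39 ± 0.50 in PT+HS, 12.24 ± 0.62 in PT and 11.17 ± 0.46 in Ctrl (log2, SD, n = 3 each). The log2 difference was 1.22 between PT+HS and Ctrl (limma, standard error 0.37, 95% interval 0.40 to 2.05, unadjusted p = 0.00781, adjusted p = 0.664). Between PT and Ctrl it was 1.07 (limma, standard error 0.37, interval 0.25 to 1.89, unadjusted p = 0.0156, adjusted p = 0.73).

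S100a9, which codes for the larger subunit, had log2 values of 13.04, 11.58 and 12.33 in PT+HS mice, 12.60, 11.27 and 12.24 in PT mice, and 11.28, 10.55 and 10.59 in Ctrl mice. The groups were arranged as for S100a8, with no overlap between PT+HS and Ctrl and with 1 PT animal just under the highest Ctrl animal. Means of 12.32 ± 0.73 in PT+HS, 12.04 ± 0.69 in PT and 10.81 ± 0.41 in Ctrl resulted (log2, SD, n = 3 each). PT+HS differed from Ctrl by 1.51 (limma, standard error 0.42, 95% interval 0.57 to 2.46, unadjusted p = 0.00527, adjusted p = 0.585). PT differed from Ctrl by 1.23 (limma, standard error 0.42, interval 0.28 to 2.18, unadjusted p = 0.016, adjusted p = 0.737).

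**Figure D1:**
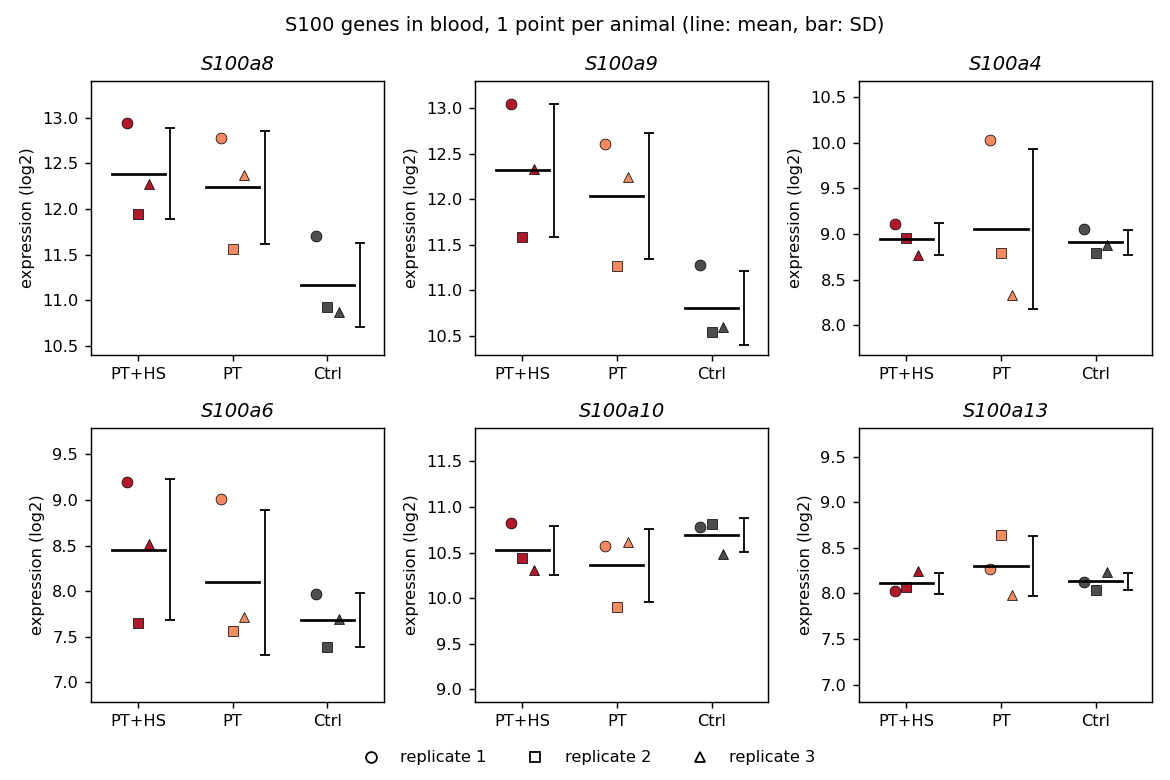
Log2 expression (vertical axis) of the 6 measured S100 genes in PT+HS, PT and Ctrl mice, with 1 point per animal, the symbol shape giving the replicate number, a line for the mean and a bar for the SD of the 3 animals. S100a8 and S100a9 lie higher in all 3 PT+HS animals than in any Ctrl animal, while for the other 4 genes the groups overlap.

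Neither gene passed an adjusted p under 0.05 over the 18194 genes. Between PT+HS and Ctrl, 0 of the 6 members passed it with limma, 0 with the methods' t-test, and 2 had an unadjusted p under 0.05, where 0.0055% of all genes passed the adjusted and 4.86% the unadjusted limit. The 2 members without overlap between PT+HS and Ctrl were again S100a8 and S100a9, where 13.2% of all genes were free of overlap. Between PT and Ctrl 3.67% of all genes passed the thresholds, 1.41% as higher, and 0% passed the adjusted limit. There 0 of 6 members passed the adjusted limit with either tool and 2 had an unadjusted p under 0.05, as did 5.82% of all genes, while 0 of 6 were free of overlap, against 9.44% of all genes. The calls of S100a8 and S100a9 in PT against Ctrl depended on single animals. Without PT replicate 1 the difference of S100a8 was 0.80 and that of S100a9 0.95, with unadjusted p = 0.0671 and 0.0673 and an adjusted p = 0.95 for each (limma), and neither passed. Without Ctrl replicate 2 the unadjusted p was 0.0548 for S100a8 and 0.0553 for S100a9, and without Ctrl replicate 3 it was 0.057 and 0.0508 (limma). The array of PT replicate 2 was the least like the others (correlation 0.900 to 0.944), and without it both passed, with differences of 1.41 and 1.61. The methods' t-test gave S100a8 a p of 0.0742 and S100a9 a p of 0.0563 between PT and Ctrl, so that 0 of 6 passed there. Between PT+HS and Ctrl both genes were past the thresholds in each of the 9 fits that left out 1 array.

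Between PT+HS and PT, which differ by the hemorrhage and its treatment, neither subunit gene passed. S100a8 differed by 0.15 (95% interval -0.67 to 0.97, unadjusted p = 0.689, adjusted p = 1 with limma) and S100a9 by 0.28 (interval -0.66 to 1.23, unadjusted p = 0.521, adjusted p = 1 with limma). Both intervals reach well past the difference in either direction, so that the p-values do not show equal levels in the injured groups.

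Over the 6 injured animals, S100a8 was 2.22-fold and S100a9 2.59-fold higher than in the 3 Ctrl animals. The log2 difference was 1.15 for S100a8 (limma, standard error 0.32, unadjusted p = 0.00493, adjusted p = 0.441) and 1.37 for S100a9 (limma, standard error 0.37, unadjusted p = 0.004, adjusted p = 0.418). Exact two-sided permutation tests over the 84 ways to draw 6 of 9 animals gave p = 0.0357 for S100a8 and p = 0.0357 for S100a9. The other 4 genes had exact permutation p values of 0.262 (S100a6), 0.286 (S100a10), 0.726 (S100a13) and 0.81 (S100a4). At the thresholds 3.25% of all genes passed in this comparison, 1.65% as higher. Of the 6 members 0 passed the adjusted limit with limma or the methods' t-test, which 0.011% of all genes passed with limma, and 2 had an unadjusted p under 0.05, as did 5.86% of all genes. The 6 injured animals overlapped with Ctrl in every member, where 3.14% of all genes were free of overlap.

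The 2 subunit genes followed each other from animal to animal. Within each group the same animal was highest for both, and the distance between their centered profiles over the 9 arrays, the mean absolute difference of the log2 values, was 0.15, where the profile of S100a8 itself deviated from its mean by 0.59 and that of S100a9 by 0.74. Expressed as the change from the Ctrl mean, S100a8 minus S100a9 was -0.46, 0.01 and -0.41 in PT+HS mice, -0.18, -0.06 and -0.23 in PT mice, and 0.06, 0.02 and -0.09 in Ctrl mice. S100a9 thus changed more than S100a8 in 2 of 3 PT+HS and in all 3 PT animals, by less than the spread of either gene within its group. Among the other members S100a6 was nearest to S100a8, at a distance of 0.31, and S100a13 farthest, at 0.66.

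S100a6, the calcyclin gene, had log2 values of 9.19, 7.65 and 8.52 in PT+HS mice, 9.01, 7.57 and 7.72 in PT mice, and 7.97, 7.38 and 7.69 in Ctrl mice. It was high in 2 PT+HS animals and 1 PT animal, and the remaining injured animals lay within the range of Ctrl. S100a6 differed from Ctrl by 0.77 in PT+HS mice (limma, standard error 0.45, 95% interval -0.22 to 1.77, unadjusted p = 0.115) and 0.42 in PT (interval -0.58 to 1.41, unadjusted p = 0.373). The call depended on the fit and on the animals. Without PT+HS replicate 2 the difference of S100a6 from Ctrl was 1.17 (unadjusted p = 0.0253, adjusted p = 0.932 with limma) and passed the thresholds, with all animals and the replicate number as a block the same 0.77 also passed (unadjusted p = 0.014, adjusted p = 0.619 with limma), and without PT+HS replicate 1 it was 0.40. Between PT+HS and PT S100a6 differed by 0.36 (interval -0.64 to 1.35).

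S100a4, also known as metastasin, had log2 values of 9.11, 8.95 and 8.77 in PT+HS mice, 10.03, 8.80 and 8.33 in PT mice, and 9.06, 8.79 and 8.88 in Ctrl mice. The PT group held both the highest and the lowest of the 9 animals, and the other groups lay between them. It differed by 0.03 between PT+HS and Ctrl and by 0.14 between PT and Ctrl (standard error 0.36 each), with intervals of -0.77 to 0.84 and -0.67 to 0.95. The SD among the 3 PT animals was 0.88, against 0.17 in PT+HS and 0.14 in Ctrl.

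S100a13 had log2 values of 8.03, 8.07 and 8.24 in PT+HS mice, 8.27, 8.64 and 7.98 in PT mice, and 8.13, 8.04 and 8.23 in Ctrl mice. All PT+HS and Ctrl animals lay within a narrow band, and the highest value came from the PT array that stood apart. The differences were -0.02 between PT+HS and Ctrl (95% interval -0.45 to 0.41), 0.17 between PT and Ctrl (-0.26 to 0.59) and -0.19 between PT+HS and PT (-0.61 to 0.24).

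S100a10, the annexin A2 partner, had log2 values of 10.83, 10.44 and 10.31 in PT+HS mice, 10.57, 9.90 and 10.61 in PT mice, and 10.78, 10.82 and 10.48 in Ctrl mice. The groups overlapped, and the lowest value came from PT replicate 2. PT+HS differed from Ctrl by -0.17 (95% interval -0.69 to 0.36) and PT from Ctrl by -0.33 (interval -0.86 to 0.19). S100a10 was the only member with several probe sets of 1 symbol. The second did not pass, with differences from Ctrl of -0.11 (PT+HS) and -0.49 (PT), and its suffix x marks probes that can also bind other transcripts. The third had values of 3.78, 3.92 and 3.65 in PT+HS mice, 3.55, 3.65 and 4.68 in PT mice, and 4.55, 4.88 and 4.69 in Ctrl mice. Here all PT+HS animals and 2 of 3 PT animals were below Ctrl. This probe set was lower by a log2 difference of -0.93 in PT+HS and of -0.75 in PT, which both passed the thresholds in a fit to all probe sets of 1 symbol. Its mean of 4.15 lay under 4.29, the median over the means of all genes, so that it measured a dim signal, and the 3 probe sets of S100a10 did not give 1 answer. S100a8, S100a9, S100a4, S100a6 and S100a13 each had a single such probe set. That of S100a8 has a suffix, s, for probes shared by several transcripts, although its annotation holds only S100a8.

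**Figure D2:**
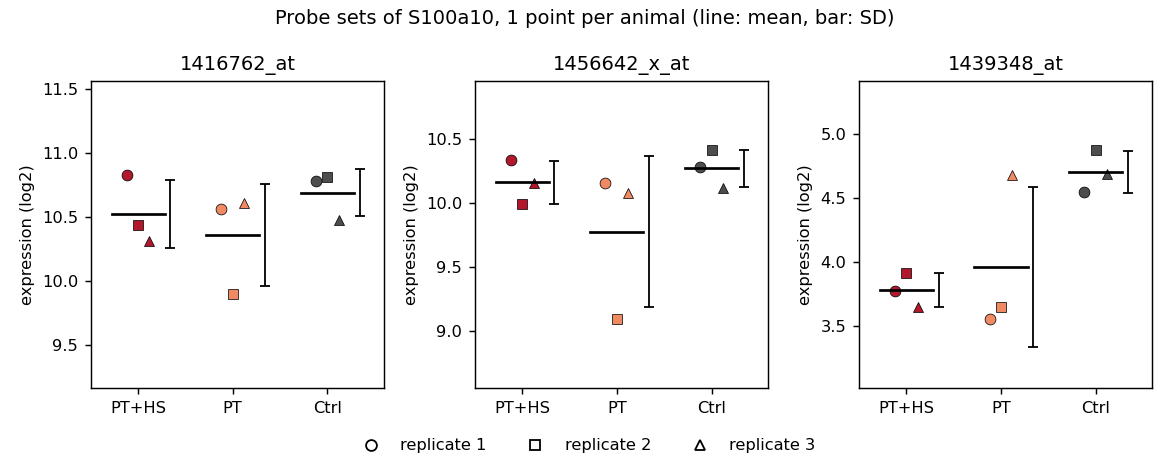
Log2 expression (vertical axis) of the 3 probe sets of S100a10 in PT+HS, PT and Ctrl mice, 1 point per animal, with a line for the mean and a bar for the SD of 3 animals. The bright probe sets (left and middle) overlap between groups, whereas the dim one (right) is lower in all PT+HS animals (3.65 to 3.92) than in Ctrl (4.55 to 4.88).

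Of the other S100 genes S100a1, S100a3, S100a5, S100a14, S100a16, S100b and S100g, the related S100a7l2 and the binding protein gene S100pbp, 0 passed the thresholds in any comparison and 0 had an unadjusted p under 0.05 (limma), each gene taken by its brightest probe set. The brightest probe set of S100a1 has the suffix s, for probes shared by several transcripts. A second, dimmer one without this suffix did pass in PT against Ctrl in the fit to all probe sets of 1 symbol. This second probe set was lower by a log2 difference of -0.61 (unadjusted p = 0.0479 with limma). It had 6.07, 6.55 and 6.39 in PT+HS mice, 5.91, 5.85 and 6.25 in PT mice, and 6.98, 6.90 and 5.97 in Ctrl mice, so that PT and Ctrl overlapped. S100a7a and S100z had no value here. The 9 measured genes differed from Ctrl by -0.23 (S100a3) to 0.32 (S100b) in PT+HS and by -0.36 (S100a1) to 0.20 (S100a3) in PT. S100b, best known from astrocytes and used as a marker of brain injury, had values of 4.39, 3.65 and 4.23 in PT+HS mice, 3.82, 4.34 and 3.54 in PT mice and 3.94, 3.88 and 3.47 in Ctrl mice, which overlap. S100a3 was lower in every PT+HS animal (3.19, 2.79 and 2.84) than in every PT animal (3.32, 3.51 and 3.27), by -0.43, but did not pass (unadjusted p = 0.117 with limma) and lay below the median of all gene means. Of all genes 7.17% did not overlap between PT+HS and PT, and 1.12% passed the thresholds there. Of the 6 members, 0 passed between PT+HS and PT with limma or the methods' t-test, at the thresholds or at the adjusted limit, which 0% of all genes passed, and 0 had an unadjusted p under 0.05, as did 2.87% of all genes.

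**Figure D3:**
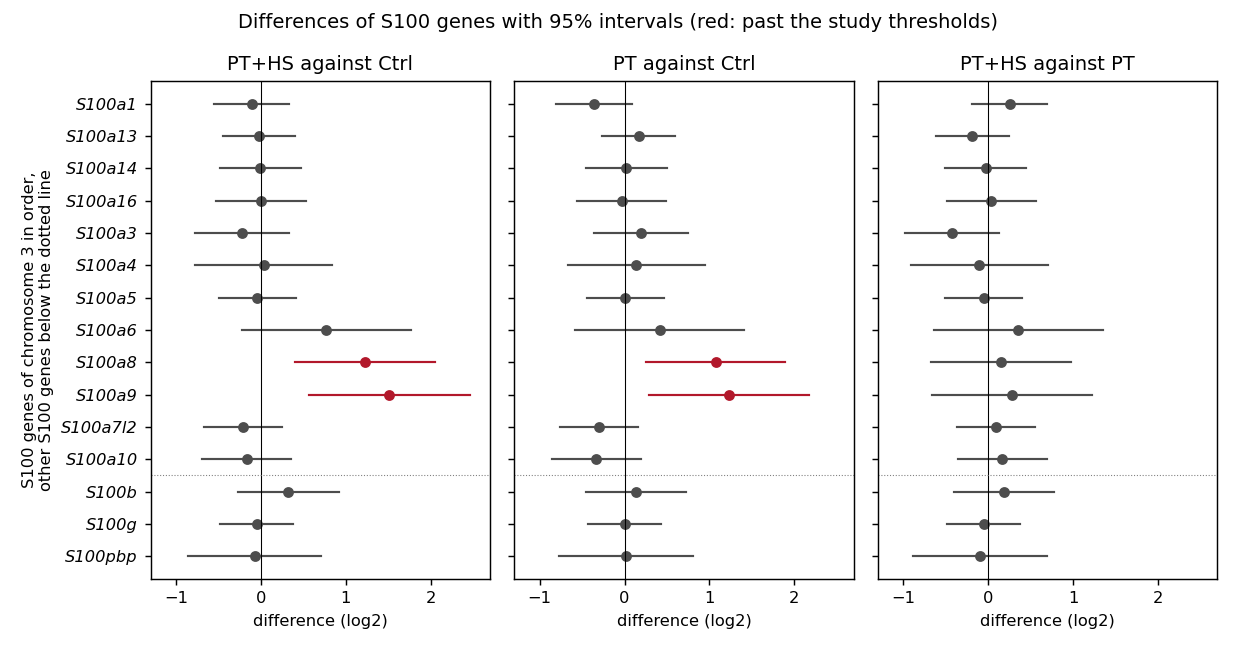
Log2 differences (horizontal axis) of the measured S100 genes, ordered along chromosome 3 with the others below the dotted line, between PT+HS and Ctrl, PT and Ctrl, and PT+HS and PT, with 95% intervals from limma. Only S100a8 and S100a9 pass the thresholds (red), at 1.22 and 1.51 in PT+HS and at 1.07 and 1.23 in PT.

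Many neutrophil markers, though not all, moved with S100a8 and S100a9. Of 17 listed neutrophil genes 14 were measured, of which 9 were higher and 0 lower at the thresholds in PT+HS against Ctrl, and 7 were higher and 0 lower in PT against Ctrl. Their median log2 difference was 1.30 in PT+HS and 1.06 in PT, beside the near-zero medians over all genes given above. At the thresholds 1.99% of all genes were higher in PT+HS and 1.41% in PT. The granule collagenase gene Mmp8 had 10.58, 9.51 and 10.63 in PT+HS mice, 10.52, 8.75 and 9.75 in PT mice, and 6.06, 5.00 and 5.40 in Ctrl mice (log2), with differences of 4.76 and 4.18. Il1r2, a decoy receptor for interleukin-1, was higher by 4.61 and 4.09, Hdc, the histamine-forming enzyme, by 6.06-fold and 4.06-fold, and Cxcr2, the receptor for neutrophil-attracting chemokines, by 1.99 and 1.46. The 5 that passed neither in PT+HS nor in PT were Camp (-0.10 and 0.07), Ltf (0.16 and 0.29), Padi4 (0.19 and 0.20), Mmp9 (0.85 and 0.13) and Ngp. Csf3r and Cd177 passed in PT+HS but not in PT. The mean of the 14 markers, as the change from the Ctrl mean, was 2.23, 1.02 and 2.03 in PT+HS mice, 1.98, 0.62 and 1.63 in PT mice, and 0.69, -0.38 and -0.31 in Ctrl mice. Within each group the animal that was highest in the markers was also highest in S100a8 and S100a9, and the same held for the lowest PT+HS and PT animals. The part of neutrophil numbers in the difference of S100a8 and S100a9 was not tested. Ly6g, Retnlg and Fpr1 had no value here, so that the defining surface marker of mouse neutrophils is missing from the list. Of 10 markers of immature neutrophils, only Chil3 passed, with 2.09 in PT+HS and 1.69 in PT, while the granule protein genes Fcnb (0.41 and -0.01), Prtn3 (0.47 and 0.001) and Ngp (1.81 and 1.59) did not.

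Monocytes, the second source of calprotectin, gave a divided picture. Of 11 measured monocyte markers 3 were higher and 1 lower in PT+HS, and 3 were higher and 4 lower in PT (median log2 difference 0.06 and -0.57). Ccr2, the chemokine receptor of classical monocytes, was higher by 1.65 and 1.36 and Ms4a6c by 1.26 and 1.10, while Cx3cr1, high in patrolling monocytes, was lower, with differences of -0.69 and -1.29. Between PT+HS and PT all 11 differences were positive, with a median of 0.60, where the median over all genes was -0.0032. Past the thresholds were 3 of them (Nr4a1 by 0.86, Klf4 by 0.67 and Treml4 by 0.72), against 1.12% of all genes. These 3 were not higher than in Ctrl. Their differences from Ctrl were -1.32, -0.94 and -1.17 in PT, which all passed, and -0.47, -0.27 and -0.45 in PT+HS, which did not. The mean of the monocyte markers, relative to Ctrl, ranged from 0.33 to 0.57 in PT+HS mice, from -0.72 to 0.49 in PT mice and from -0.16 to 0.23 in Ctrl mice. B cell markers ran the other way, with 8 of 9 lower in PT+HS and 8 of 9 lower in PT, at a median of -1.5 and -1.63. Of all genes 1.29% were lower at the thresholds in PT+HS and 2.26% in PT. Fcer2a, the low-affinity IgE receptor, was 4.95-fold and 4.53-fold lower in PT+HS and in PT, the follicle-homing receptor Cxcr5 4.33-fold and 3.99-fold lower, and the B-cell receptor subunits Cd79a 2.25-fold and 2.30-fold and Cd79b 4.30-fold and 3.49-fold lower. The mean of the B cell markers, relative to Ctrl, ranged from -1.82 to -1.31 in PT+HS mice, from -2.10 to -0.52 in PT mice and from -0.49 to 0.40 in Ctrl mice. The part of these cell types in the differences of the S100 genes was not tested.

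**Figure D4:**
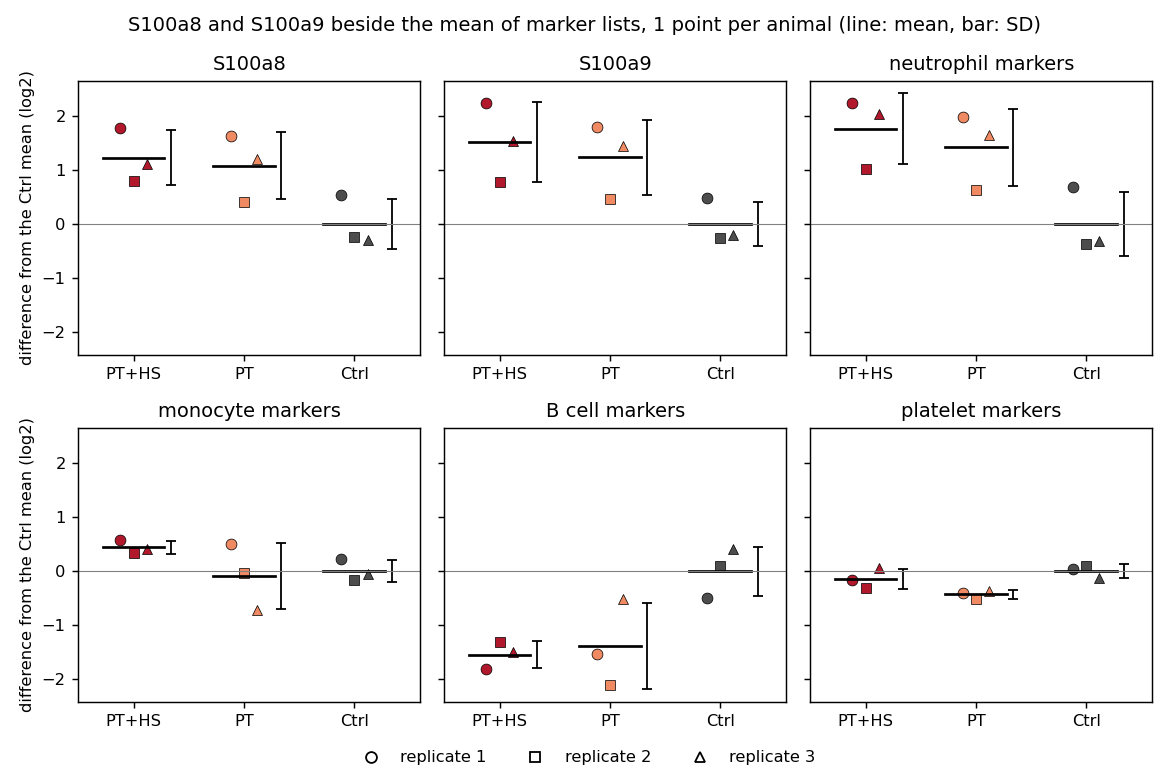
Log2 difference from the Ctrl mean (vertical axis) of S100a8, S100a9 and the means of the neutrophil, monocyte, B cell and platelet markers in PT+HS, PT and Ctrl mice, 1 point per animal, with a line for the mean and a bar for the SD of 3 animals. In both injured groups the animals with the highest and the lowest neutrophil markers are also those with the highest and the lowest S100a8 and S100a9, with marker means of 2.23, 1.02 and 2.03 in PT+HS mice.

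Genes of the receptor side of calprotectin were in part higher after injury. Of 10 receptors and adaptors, 4 were higher and 0 lower in PT+HS against Ctrl, and 3 higher and 0 lower in PT against Ctrl (median 0.43 and 0.31). The shares of all genes called higher were 1.99% and 1.41%. Cd14, the co-receptor of toll-like receptor 4, had log2 values of 8.03, 6.53 and 7.62 in PT+HS mice, 7.63, 6.16 and 5.98 in PT mice, and 5.44, 4.94 and 4.12 in Ctrl mice. All injured animals lay above all Ctrl animals for Cd14, with differences of 2.56 and 1.75 (limma, adjusted p = 0.304 and 0.63). Tlr4, the receptor itself, was higher by 0.91 and 0.76 (limma, adjusted p = 0.821 and 0.836). Myd88, the adaptor that passes its signal on, was higher by 1.11 and 0.89 (limma, adjusted p = 0.735 and 0.806). For both genes PT overlapped with Ctrl. The mean of Tlr4, 4.33, lay just above 4.29, the median over the means of all genes. Cd33, a sialic acid-binding receptor to which S100A9 binds in humans, was higher by 1.56 in PT+HS, while its 0.94 in PT did not pass (unadjusted p = 0.0506 with limma). Ager, the gene of RAGE, differed by 0.09 and -0.10 and overlapped between the groups, but its mean of 3.72 lay under 4.29, a dim signal. Ly96, which codes for the MD-2 part of the toll-like receptor 4 complex, differed by 0.50 and 0.34 without passing, and Cd36, Bsg, Nptn and Mcam also did not pass. Cd14 also stands in the list of monocyte markers.

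Among the intracellular partners, Anxa6 was the only one that passed. Of 7 measured annexins 0 were higher and 1 lower in PT+HS, and again 0 and 1 in PT (median 0.33 and 0.03). Anxa6, a membrane-binding annexin and a known partner of several S100 proteins, had log2 values of 4.25, 4.46 and 4.92 in PT+HS mice, 4.13, 4.28 and 4.49 in PT mice, and 5.27, 5.52 and 5.91 in Ctrl mice. Every injured animal was lower than every Ctrl animal, by -1.02 in PT+HS and -1.27 in PT (limma, adjusted p = 0.379 and 0.343). Anxa2, the partner of S100A10, differed by 0.46 and -0.01, and Anxa1, the partner of S100A11, by 0.65 and 0.03, and neither passed. Nor did Anxa3 (0.55 and 0.54) and Anxa7 (0.33 and 0.28). Among 8 other partners 0 passed in any comparison and 0 had an unadjusted p under 0.05 (limma). Cacybp, the calcyclin-binding protein gene, differed by -0.49 in PT+HS and -0.17 in PT, and Myh9, the heavy chain bound by S100A4, by 0.07 and -0.30. Ahnak, a large scaffold protein bound by S100A10, differed by -0.54 and -0.59. The S100A13 partner Fgf1, a growth factor, differed by -0.24 and -0.08, and its partner Syt1 by -0.34 and 0.07.

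Transcription factors that have been named as regulators of S100a8 and S100a9 were in large part higher in PT+HS. Of 8 measured factors 7 were higher at the thresholds and 0 lower in PT+HS against Ctrl, and 2 higher and 0 lower in PT against Ctrl (median 0.99 and 0.55). Over all genes the shares called higher were 1.99% and 1.41%. Cebpb, a factor of emergency granulocyte formation, had log2 values of 9.48, 9.15 and 9.67 in PT+HS mice, 9.81, 8.41 and 8.57 in PT mice, and 8.58, 8.16 and 8.07 in Ctrl mice. It was higher by 1.17 in PT+HS, and its difference of 0.66 in PT did not pass (unadjusted p = 0.0845 with limma). Bach1, a heme-sensing repressor, was higher by 1.10 and 0.78, and Hif1a, the oxygen-regulated factor, by 1.10 and 1.18. Spi1, which codes for PU.1, Cebpd and Stat3 passed in PT+HS only, with 0.73, 1.11 and 0.88, and their differences between PT+HS and PT did not pass. Cebpa, a factor of myeloid differentiation, was the only one of the 8 that passed between PT+HS and PT. It had 7.30, 6.61 and 6.98 in PT+HS mice and 6.00, 5.12 and 6.28 in PT mice, with 6.54, 6.17 and 5.73 in Ctrl mice. PT+HS exceeded PT by 1.16 (standard error 0.33, unadjusted p = 0.00533, adjusted p = 1 with limma), where S100a8 and S100a9 did not pass. As given above, 3 of 11 monocyte markers also passed as higher in that comparison, though they lay below Ctrl in both injured groups. The part of monocytes in the difference of Cebpa, and of neutrophils in those of the 8 factors, was not tested.

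**Figure D5:**
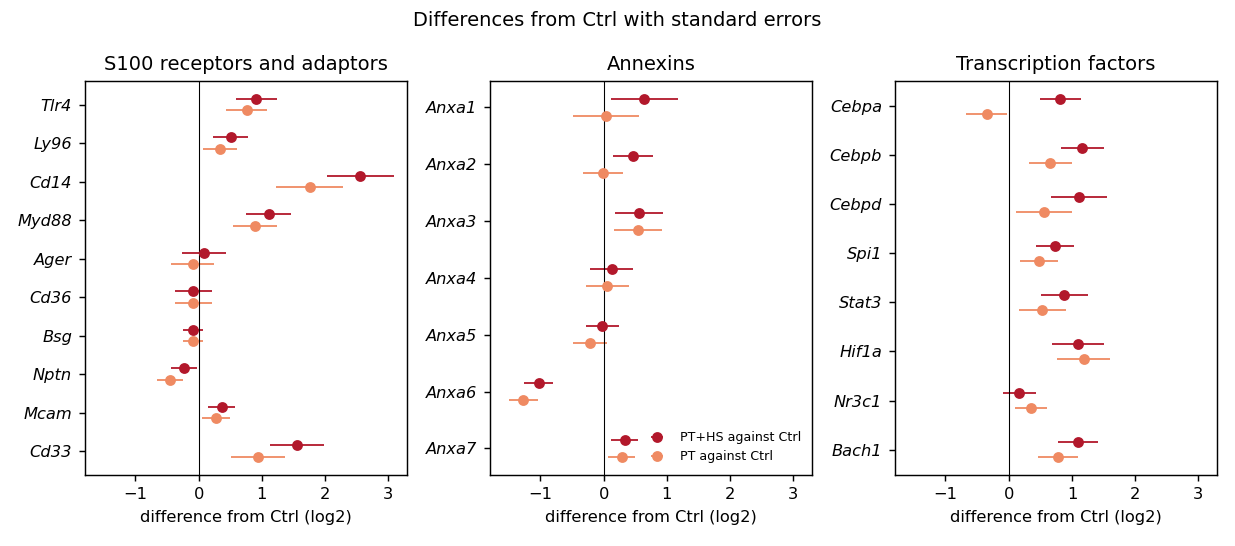
Log2 differences from Ctrl (horizontal axis) in PT+HS and PT mice of receptors and adaptors, annexins and transcription factors, with standard errors from limma. Cd14 (2.56 and 1.75) lies highest, Anxa6 (-1.02 and -1.27) lowest, and Cebpa lies at 0.82 in PT+HS and -0.35 in PT.

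The genes with the most similar profiles were searched among 9097 genes with a mean above the median, by the mean absolute difference of centered log2 values over the 9 arrays. Nearest to S100a8 were S100a9 (0.15), Retnla (0.15) and Glrx (0.16), and nearest to S100a9 were S100a8, Ifitm1 (0.18) and Retnla (0.18). Retnla, a resistin-like gene, had log2 values of 9.46, 8.55 and 9.10 in PT+HS mice, 9.24, 8.24 and 8.96 in PT mice, and 7.79, 7.64 and 7.27 in Ctrl mice, but belongs to a family of close copies that the probes may not separate. Glrx, a glutaredoxin, was higher by 1.05 in PT+HS, and Ifitm1, an interferon-induced membrane protein gene, by 1.41. Nearest to S100a6 were Cfp (0.13), the gene of properdin, then B430306N03Rik (0.18) and Xbp1 (0.21). The profile of S100a4 was nearest to those of Cd209a (0.15), Acer3 (0.15) and Lyz2 (0.16), the lysozyme gene of myeloid cells. For S100a10 these were Ppil3, Rgs18 and Rgs10 (each 0.07), and for S100a13 Iglon5 (0.07), Ezr (0.08) and Smap1 (0.08), where the members' own profiles deviated from their means by 0.22 (S100a10) and 0.15 (S100a13).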

How the data were processed

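The authors deposited log2 expression values of 45101 Affymetrix probe sets, made by robust multiarray average (background correction, quantile normalization and a summary per probe set). No software version is given in the sources used here. The methods name a Mouse Gene ST array, whereas the deposited probe set names belong to another Affymetrix mouse array, whose annotation was used. Kept were 34958 probe sets with 1 symbol, while 932 with several and 9211 with none were left out. No filter on low values was applied. limma 3.58.1 in R 4.3.3 was run on the 9 arrays together, with a mean for each group, and p-values were adjusted by Benjamini-Hochberg over 18194 genes. The fit was tested on simulated data. A gene was called by its adjusted p (under 0.05) or by the thresholds of the methods. The members, gene lists and tests were chosen with earlier results of these data known. Named are all S100 genes measured, up to 4 genes per list with the smallest p in PT+HS against Ctrl (fewer in some lists), the nearest profiles and further list genes chosen after their values were seen. Alternatives were the methods' t-test, fits to the arrays of a comparison, a variance trend, array weights, equal medians, repeated quantile normalization, genes above the median, all probe sets or their mean per gene, a replicate block, a 2-fold threshold and leaving out each array. The number of arrays limits the precision, and no scan date or batch is given in the sources used here.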

Additional observations from a re-analysis of the deposited data

How the results depend on the processing

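Under the alternatives, 425 of the values of single members kept direction and side of the thresholds, 7 newly passed, 8 no longer passed and 22 changed sign. In PT+HS against Ctrl the number of members past the thresholds stayed at 2 or 3, and S100a8 and S100a9 passed in all alternatives. Over all genes and alternatives their adjusted p ranged between 0.0827 and 1 for S100a8 and between 0.0593 and 1 for S100a9. In PT against Ctrl 0 members passed with the methods' t-test and 4 with array weights (S100a8, S100a9, S100a4 and S100a6), and leaving out 1 array gave 0 to 2, with 0 without Ctrl replicate 2, Ctrl replicate 3 or PT replicate 1. With array weights 2 members passed an adjusted p under 0.05 in PT against Ctrl and 2 in all injured animals against Ctrl, and 1 (S100a4, -0.88) passed the thresholds in PT+HS against PT. These weights give PT replicate 1 86.9% of the PT mean. Array weights also turned the small differences between PT+HS and PT to -0.30 for S100a8, -0.20 for S100a9, -0.38 for S100a6 and -0.019 for S100a10, none of which passed. Repeated quantile normalization turned S100a13 in PT+HS against Ctrl to 0.036.

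Leaving out 1 array changed the sign only of differences that had not passed. In PT+HS against Ctrl S100a4 ranged from -0.050 to 0.12 and S100a13 from -0.086 to 0.030. In PT against Ctrl S100a4 ranged from -0.35 to 0.50, S100a6 from -0.042 to 0.68 and S100a13 from -0.0060 to 0.32. In PT+HS against PT the ranges were -0.19 to 0.42 for S100a8, -0.10 to 0.65 for S100a9, -0.47 to 0.38 for S100a4, -0.013 to 0.81 for S100a6 and -0.063 to 0.29 for S100a10. In all injured animals against Ctrl they were -0.16 to 0.27 for S100a4 and -0.013 to 0.15 for S100a13. The number of all genes past the thresholds was 1666 with array weights, 293 with the methods' t-test and 668 in the fit reported, for PT against Ctrl. It was 877, 76 and 204 for PT+HS against PT, with 103 when probe sets were averaged per gene and 132 among genes above the median, and for PT+HS against Ctrl it was 898 in a fit to the arrays of the comparison alone and 596 in the fit reported. For all injured animals against Ctrl it was 953 with array weights and 592 in the fit reported. Without 1 PT array it reached 1117 (replicate 2) and 1493 (replicate 3) for PT against Ctrl, and 506, 855 and 623 (replicates 1, 2 and 3) for PT+HS against PT. It was 950 for all injured animals against Ctrl without PT replicate 3 and 335 for PT+HS against PT without PT+HS replicate 2.

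Equal replicate numbers were not taken to pair the animals, as the sources used here do not say whether they mark a shared day or batch. Deviations of arrays with the same number correlated at -0.115 to 0.478, with 3 of 9 pairs over 0.1. With 3 arrays per group these correlations cannot settle whether the numbers pair the animals. The replicate block lowered the standard error of S100a8 in PT+HS against Ctrl from 0.37 to 0.20. With the replicate number as a block, S100a6 passed the thresholds as the third member in PT+HS and in all injured animals against Ctrl, and 1 member, S100a9, passed the adjusted limit in all injured animals against Ctrl (adjusted p = 0.0417 with limma). Signal limits what can be said of the dim S100 genes and of the dim probe set of S100a10. The same holds for Ager, Ly96, Mcam, Fgf1, Syt1, Il1a, Il33, Hspa1a, Fcnb and Prtn3. Their means lay under 4.29, the median over the means of all genes. The causes of these changes were not tested.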

Other observations

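Among 7 other measured alarmins, only Lcn2, the siderophore-binding lipocalin of neutrophil granules, passed the thresholds. It had log2 values of 11.49, 9.13 and 10.64 in PT+HS mice, 10.57, 8.24 and 10.04 in PT mice, and 9.09, 6.47 and 6.91 in Ctrl mice, with differences of 2.93 and 2.12. Camp and Ltf, which code for other granule proteins, did not pass. Lcn2, Camp and Ltf also stand in the list of neutrophil markers. Camp differed by -0.10 in PT+HS and 0.07 in PT, Ltf by 0.16 and 0.29. Il33, Il1a, Il16 and Hspa1a did not pass in any comparison.

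Of 7 platelet markers 0 passed in PT+HS and 1, Gp5, a subunit of the von Willebrand factor receptor, was lower in PT (-0.72), with a median of -0.12 and -0.45. Of 8 T cell markers and of 6 red cell precursor markers 0 passed in PT+HS or PT against Ctrl. Of 7 NK cell markers 2 were lower in PT+HS and 4 in PT, with Ncr1, an activating receptor, at -0.61 and -0.95 and Nkg7, a granule protein, at -0.73 and -1.05. S100a10 had its lowest value, and the platelet markers their lowest mean, in PT replicate 2, the array least like the others. That array also held the lowest means of the T cell, B cell and NK cell markers and of the annexins. The shared low was thus not particular to platelets. Neutrophil and monocyte markers had their lowest means in other arrays.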
